A study of Mus musculus with 6 samples.

Results

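The genes described here encode the protein-folding and quality-control machinery of the endoplasmic reticulum (ER) together with the apparatus that brings proteins into it and sends them on. They are 39 genes in 6 roles: 12 luminal chaperones and cofactors, 4 protein disulfide isomerases, 4 stress sensors and transcription factors, 10 components of ER-associated degradation, 7 genes of translocation, signal peptide removal and export, and 2 further calcium-binding or ER membrane proteins. The members are a list of gene symbols, and every probe set paired with 1 gene alone, that gene being on the list, was taken, which gave 79 probe sets. All 39 had such a probe set and passed the filter on low signals, among 9685 genes tested of 12393 that had an unshared probe set. The study compared 3 groups of mice, each with 2 arrays: mice given FGF15, mice given FGF19 and mice given vehicle. All were wild-type C57Bl/6 males injected in the jugular vein. Their livers were taken 6 h later, and they had no food in that time. The FGF15 was purified and the FGF19 was recombinant. Neither the doses nor what the vehicle contained is given in the sources used here. Expression was measured in whole liver with the Affymetrix Mouse Genome 430A 2.0 array, in which a probe set is a group of short probes for 1 transcript and its signal intensity stands for that transcript's abundance. Nothing in the labels ties an array to an animal. The p-values thus cover the spread between arrays alone, and that spread may be technical.

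FGF15 and its human orthologue FGF19 are gut hormones that act on hepatocytes through FGFR4 and its co-receptor β-Klotho, where they lower bile acid synthesis and raise protein and glycogen synthesis. Hepatocytes secrete most plasma proteins, and these fold in the ER. When unfolded proteins build up there, the sensors IRE1α (Ern1), ATF6 (Atf6) and PERK (Eif2ak3) start the unfolded protein response. IRE1α splices the messenger RNA of Xbp1 and ATF6 is cleaved to an active factor. Both routes raise chaperones and the machinery of ER-associated degradation (ERAD), which returns misfolded proteins to the cytosol for the proteasome.

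ATF6 and XBP1 bind short promoter sequences, and these are shown because members that rose and members that did not pass both carry them. The ER stress response element (ERSE) reads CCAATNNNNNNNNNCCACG and its variant ERSE-II reads ATTGGNCCACG. Both were searched on both strands of RefSeq promoter windows, from 250 bases before to 50 bases after each annotated start (build GRCm38.p6, 300 bases). Windows were in the table for 32 of the 39 members. Those without one were Hyou1, Sil1, Manf, Atf6, Derl1, Sec61a1 and Sec11c. Written 5′ to 3′ in the direction of the gene, with the element in capitals, the windows of the ERSE genes Hspa5 and Creld2 and of the ERSE-II gene Herpud1 are:
Hspa5 (chr2:34771840-34772139, plus strand): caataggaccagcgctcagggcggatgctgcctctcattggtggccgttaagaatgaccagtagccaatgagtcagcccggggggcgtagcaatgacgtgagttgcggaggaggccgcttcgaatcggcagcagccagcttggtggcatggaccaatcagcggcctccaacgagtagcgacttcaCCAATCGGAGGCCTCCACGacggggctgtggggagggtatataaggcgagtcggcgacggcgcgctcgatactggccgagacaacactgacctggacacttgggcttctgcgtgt
Creld2 (chr15:88819396-88819695, plus strand): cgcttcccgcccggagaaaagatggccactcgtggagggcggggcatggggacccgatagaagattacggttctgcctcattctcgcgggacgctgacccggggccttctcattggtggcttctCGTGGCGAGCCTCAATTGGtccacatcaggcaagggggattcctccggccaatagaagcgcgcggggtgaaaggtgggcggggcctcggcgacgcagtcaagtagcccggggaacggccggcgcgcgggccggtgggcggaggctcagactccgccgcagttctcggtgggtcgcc
Herpud1 (chr8:94386179-94386478, plus strand): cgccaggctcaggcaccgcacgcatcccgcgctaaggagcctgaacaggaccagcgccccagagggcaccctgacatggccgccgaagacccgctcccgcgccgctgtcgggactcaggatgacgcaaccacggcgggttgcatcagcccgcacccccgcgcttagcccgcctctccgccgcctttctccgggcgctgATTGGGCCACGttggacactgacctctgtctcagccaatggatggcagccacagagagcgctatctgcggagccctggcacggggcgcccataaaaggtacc
Around the elements of the other members, 20 bases are shown on either side. The first 5 genes rose with both hormones, and Hsp90b1, Calr and Canx did not pass the test at their brightest probe set:
Syvn1 (ERSE, chr19:6046512-6046570, plus strand): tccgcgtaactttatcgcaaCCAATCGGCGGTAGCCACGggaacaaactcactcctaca
Derl3 (ERSE, chr10:75893222-75893280, plus strand): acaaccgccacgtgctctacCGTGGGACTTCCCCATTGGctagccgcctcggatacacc
Pdia6 (ERSE, chr12:17266471-17266529, plus strand): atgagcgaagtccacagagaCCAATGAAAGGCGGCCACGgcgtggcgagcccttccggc
Dnajc3 (ERSE, chr14:118937807-118937865, plus strand): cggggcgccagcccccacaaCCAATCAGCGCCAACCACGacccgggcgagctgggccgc
Dnajb11 (ERSE-II, chr16:22857832-22857882, plus strand): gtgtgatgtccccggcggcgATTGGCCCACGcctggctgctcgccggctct
Hsp90b1 (ERSE, chr10:86705618-86705676, minus strand): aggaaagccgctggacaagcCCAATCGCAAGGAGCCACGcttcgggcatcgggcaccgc
Hsp90b1 (ERSE, chr10:86705513-86705571, minus strand): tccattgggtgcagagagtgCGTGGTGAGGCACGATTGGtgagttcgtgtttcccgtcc
Calr (ERSE, chr8:84847055-84847113, minus strand): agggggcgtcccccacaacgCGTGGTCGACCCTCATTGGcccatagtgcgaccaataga
Canx (ERSE, chr11:50325780-50325838, minus strand): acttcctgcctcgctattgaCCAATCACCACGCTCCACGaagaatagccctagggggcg
An element that begins with CGTGG is the same one read on the opposite strand. The ERSE of Hspa5 lay 65 to 46 bases before the start, that of Syvn1 began 44 bases before it, and the first of the pair in Hsp90b1 began 212 bases before it. A match of letters is a description of the sequence and not a bound site.

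The arrays agreed closely within groups, with r = 0.989 for FGF15, 0.992 for FGF19 and 0.989 for vehicle across genes, which are not independent replicates. FGF19 replicate 1 stood apart in its control probe sets. The geometric mean signal of its 18S ribosomal RNA controls was 29.1, where the remaining 5 arrays had 8.38 to 11.3. For β-actin its ratio of 3′ to 5′ signal, a sign of RNA degradation, was 1.63, where theirs was 1.30 to 1.39. FGF19 results are therefore also given without it. Hepatocyte markers were bright on all 6 arrays, with summed signals of 82646 to 89503 with FGF15 and 71293 to 92051 with FGF19, against 96233 to 97031 with vehicle, and the low FGF19 value was that of replicate 1. Of 9 such markers tested, 1 fell with FGF15 (Tat, tyrosine aminotransferase) and 0 with FGF19 by limma, with 6 lower at an unadjusted p under 0.05. Without FGF19 replicate 2, 7 fell with FGF19.

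With FGF15, 21 of the 39 members rose and 0 fell. With FGF19, 19 rose and 0 fell. A gene is said to rise or fall when limma's moderated test, adjusted over all 9685 genes, gave p under 0.05. At an unadjusted p under 0.05, the counts were 25 and 0 with FGF15, and 22 and 0 with FGF19, and no such count was made over all genes. Over all genes, 5.91% rose and 6.67% fell with FGF15, and 6.29% rose and 7.27% fell with FGF19, by the adjusted test. The median member changed by 0.33 with FGF15 and by 0.23 with FGF19 on a log2 scale of (signal + 32), against -0.05 and -0.07 over all genes. Changes lay above 0 in 38 members with FGF15 and in 31 with FGF19, against 42.0% and 38.7% of all genes. Centring every array on its median signal raised the median of all genes by 0.12 with FGF15 and by 0.15 with FGF19. The counts for all genes then moved to 1007 up and 356 down with FGF15, against 572 and 646 without centring, and to 1218 and 330 with FGF19, against 609 and 704. Of the members, 25 rose with FGF15 and 22 with FGF19 under that centring, and 0 fell. Since whole liver was measured, a change in the number of cells of a type and a change in RNA per cell cannot be told apart.

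The same vehicle arrays serve both comparisons, so their results are not independent of each other. In all, 16 members passed the test with each hormone, 5 with FGF15 alone (Pdia3, Atf6, Eif2ak3, Sel1l and Wfs1), 3 with FGF19 alone (Sil1, Pdia4 and Xbp1) and 15 with neither. Passing with 1 hormone and not the other does not show that the hormones differ, and that difference was tested directly further on. Leaving out FGF19 replicate 1, the array that stood apart, left 14 members up with FGF19, and the calls of Sil1, Pdia4, Ssr1, Spcs2 and Sec23b were the ones lost (adjusted p = 0.058, 0.073, 0.057, 0.097 and 0.099). Without vehicle replicate 1 the FGF19 count was 11, and without vehicle replicate 2 it was 12. The FGF15 count was 14 without vehicle replicate 1.

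**Figure D1:**
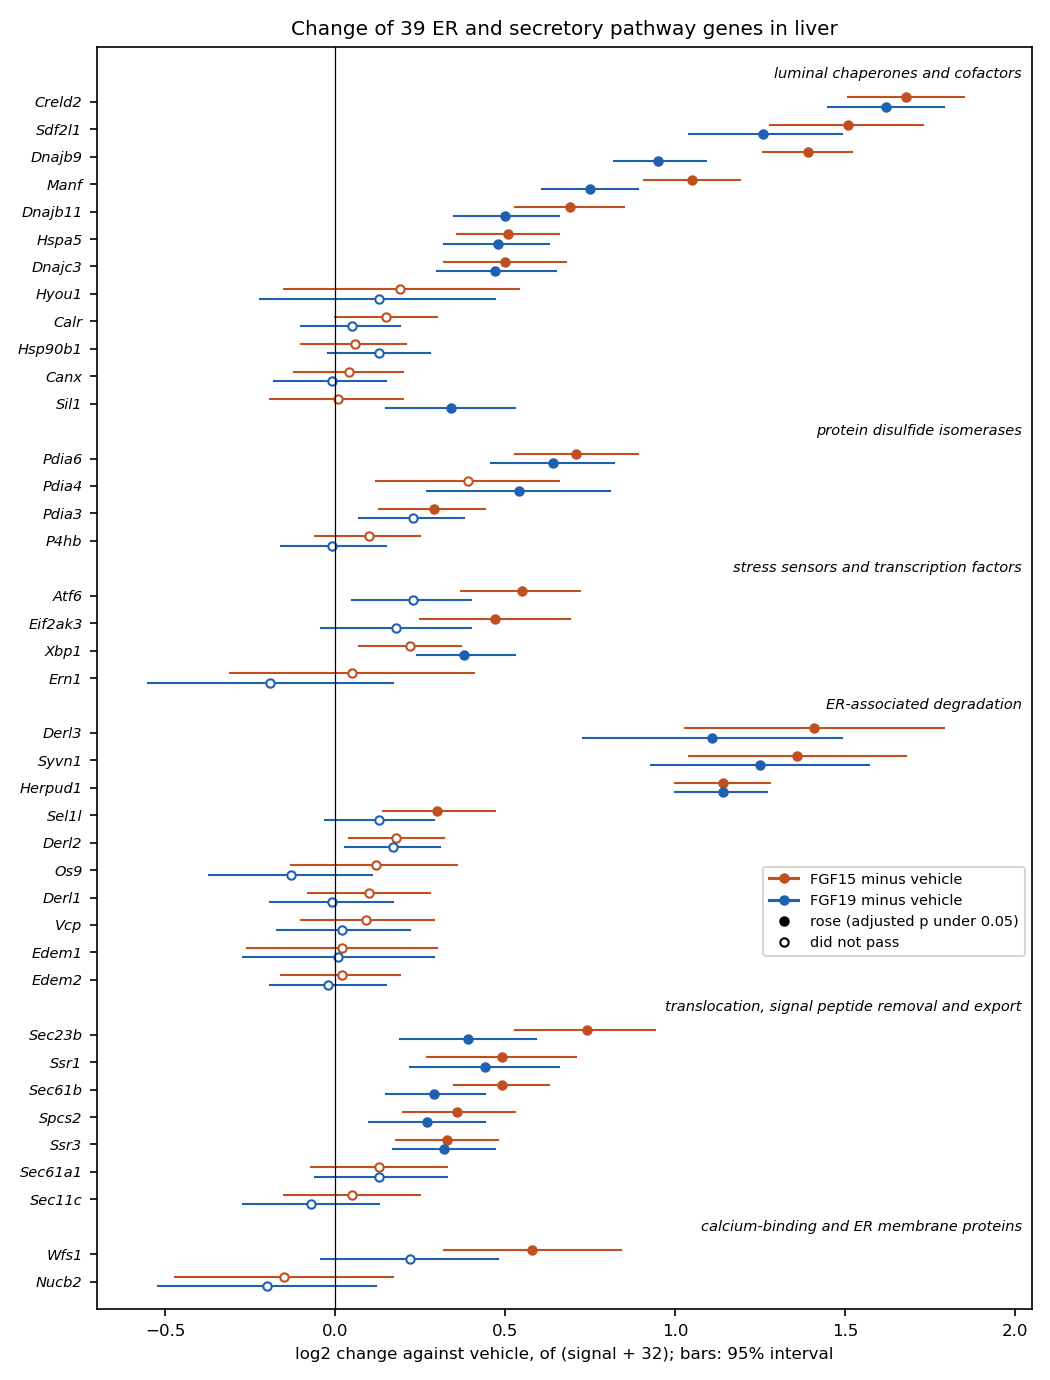
Log2 change of each of the 39 members against vehicle, on the scale of log2(signal + 32), for FGF15 (orange) and FGF19 (blue), grouped by role. Points are limma estimates from 2 arrays per group, bars their 95% intervals, and filled points passed the test. Creld2, Sdf2l1, Dnajb9, Derl3, Syvn1 and Herpud1 stand furthest right, while Hsp90b1, Calr, Canx and P4hb lie near 0.

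Among the 12 luminal chaperones and cofactors, 7 rose with FGF15 and 8 with FGF19, with median log2 changes of 0.50 and 0.47. The 4 with the largest changes with each hormone were Creld2, Sdf2l1, Dnajb9 and Manf. Creld2 encodes an ER-resident protein that takes part in disulfide formation. It had signals of 1448 and 1651 with FGF15 and 1493 and 1464 with FGF19, against 475 and 447 with vehicle. All 4 hormone arrays lay above both vehicle arrays, and the arrays of the hormones overlapped each other. The change was 3.20-fold with FGF15 (log2 1.68 ± 0.08, SE, adjusted p = 1.2e-06) and 3.07-fold with FGF19 (1.62 ± 0.08, adjusted p = 9.8e-07).

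Sdf2l1, a partner of the chaperone BiP that keeps unfolded proteins from aggregating, had 332 and 338 with FGF15 and 304 and 255 with FGF19, against 97.2 and 97.3 with vehicle. It rose 2.84-fold and 2.40-fold (adjusted p = 1.1e-05 and 3.0e-05). Its FGF15 arrays were the highest and its vehicle arrays were nearly equal to each other. Dnajb9, the J-domain cochaperone ERdj4, had 3571 and 3566 with FGF15 and 2644 and 2617 with FGF19, against 1351 and 1335 with vehicle. The groups did not overlap, and FGF19 lay between FGF15 and vehicle. These were rises of 2.62-fold with FGF15 (adjusted p = 8.8e-07) and 1.94-fold with FGF19 (adjusted p = 6.2e-06). Manf, a small secreted ER protein that binds BiP, followed the same order of groups. It had 2971 and 2840 with FGF15 and 2407 and 2299 with FGF19, against 1392 and 1383 with vehicle, and rose 2.07-fold and 1.68-fold (adjusted p = 5.6e-06 and 4.5e-05).

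Hspa5 encodes BiP, the main HSP70 chaperone of the ER and the protein that holds the stress sensors inactive. Its signal was 5383 and 5248 with FGF15 and 5013 and 5372 with FGF19, against 3625 and 3826 with vehicle. The hormone arrays overlapped each other and lay clear of vehicle, a rise of 1.42-fold with FGF15 and 1.39-fold with FGF19 (adjusted p = 0.00099 and 0.0015). The probe set used ends in _s_at and can bind related transcripts, but a second probe set of Hspa5 gave log2 changes of 0.50 and 0.46. Dnajb11 (ERdj3), which delivers clients to BiP, had 732 and 701 with FGF15 and 612 and 642 with FGF19, against 443 and 422 with vehicle, and rose 1.61-fold and 1.42-fold. Dnajc3 (p58IPK), another J-domain cochaperone, rose 1.41-fold and 1.39-fold, although without vehicle replicate 1 its FGF19 call was lost (adjusted p = 0.05028). Sil1, the nucleotide exchange factor of BiP, was unlike the others. It had 227 and 226 with FGF15 and 280 and 308 with FGF19, against 227 and 223 with vehicle. Only the FGF19 arrays were high. That rise of 1.27-fold (adjusted p = 0.028) was lost when any 1 of the vehicle or FGF19 arrays was left out (adjusted p = 0.058 to 0.17).

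The other 4 members of this role did not pass with either hormone at their brightest probe set. Hsp90b1 (GRP94), the HSP90 of the ER, had 4953 and 5184 with FGF15 and 5205 and 5477 with FGF19, against 4719 and 5039 with vehicle. Its arrays overlapped between FGF15 and vehicle, and the log2 changes of 0.06 (95% interval -0.10 to 0.21) and 0.13 (-0.02 to 0.28) did not pass. Calreticulin (Calr) and calnexin (Canx), the lectin chaperones of glycoproteins, had log2 changes of 0.15 and 0.04 with FGF15 and of 0.05 and -0.01 with FGF19. Hyou1 (GRP170), a large HSP70 relative, had 606 and 392 with FGF15 and 461 and 468 with FGF19, against 399 and 447 with vehicle. The spread between its FGF15 arrays exceeded the difference between groups.

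Protein disulfide isomerases form and rearrange the disulfide bonds of secreted proteins. Pdia6 had 1128 and 1143 with FGF15 and 1152 and 1016 with FGF19, against 722 and 645 with vehicle. Both hormone groups were above vehicle, and Pdia6 rose 1.63-fold with FGF15 (adjusted p = 0.00038) and 1.56-fold with FGF19 (adjusted p = 0.00068). Pdia3, the isomerase that works with calnexin and calreticulin, rose with FGF15 (0.29 ± 0.07, adjusted p = 0.022) and had 0.23 ± 0.07 with FGF19 (adjusted p = 0.055). The Pdia3 call was lost without either vehicle array or FGF15 replicate 2 (adjusted p = 0.17, 0.1 and 0.16). Pdia4, an isomerase with more catalytic domains, had 334 and 249 with FGF15 and 319 and 329 with FGF19, against 203 and 223 with vehicle. It rose with FGF19 (1.45-fold, adjusted p = 0.016), a call lost without any 1 of the vehicle or FGF19 arrays (adjusted p = 0.051 to 0.11), and the FGF15 difference did not pass (adjusted p = 0.064). P4hb, the abundant classical isomerase, had log2 changes of 0.10 and -0.01.

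Of the sensors and factors, 2 of 4 rose with FGF15 and 1 with FGF19. Atf6 had 391 and 386 with FGF15 and 314 and 296 with FGF19, against 254 and 258 with vehicle. The groups did not overlap, with FGF19 in between. Atf6 rose 1.46-fold with FGF15 (adjusted p = 0.0014), and its FGF19 change of 0.23 ± 0.08 did not pass (adjusted p = 0.088). Eif2ak3, the kinase PERK that slows translation under ER stress, had 205 and 203 with FGF15 and 169 and 152 with FGF19, against 136 and 141 with vehicle. It rose 1.39-fold with FGF15 (adjusted p = 0.012), although leaving out any 1 of the FGF15 or vehicle arrays ended that call (adjusted p = 0.051 to 0.081), and its FGF19 change was 0.18 ± 0.10.

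Xbp1 encodes the factor made by IRE1α splicing, and the probe sets do not separate its spliced form. It had 4684 and 4695 with FGF15 and 5074 and 5447 with FGF19, against 4057 and 3984 with vehicle, and here FGF19 was the highest group. The FGF19 rise was 1.31-fold (adjusted p = 0.004), lost without vehicle replicate 2 (adjusted p = 0.057), and the FGF15 change of 0.22 ± 0.07 did not pass (adjusted p = 0.057). This probe set ends in _s_at and can bind related transcripts. Ern1 had low signals of 93.5 and 96.5 with FGF15 and 59.3 and 94.9 with FGF19, against 86.9 and 94.7 with vehicle. The groups overlapped, with FGF19 replicate 1 alone low, and Ern1 passed neither test.

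ERAD was divided between a few genes with large changes and several that did not pass. Herpud1, an ER membrane protein that organises the retrotranslocation complex, had 3451 and 3573 with FGF15 and 3495 and 3510 with FGF19, against 1554 and 1600 with vehicle. It rose 2.20-fold with each hormone (adjusted p = 3.2e-06 with FGF15 and 2.2e-06 with FGF19), and the hormone arrays overlapped. Syvn1 (HRD1), the ubiquitin ligase at the centre of the complex, had 1232 and 1185 with FGF15 and 971 and 1283 with FGF19, against 526 and 385 with vehicle. It rose 2.57-fold (1.36 ± 0.14, adjusted p = 0.00024) and 2.38-fold (1.25 ± 0.14, adjusted p = 0.00038), with a wider spread between arrays than Herpud1. Derl3, a derlin family member of the retrotranslocation channel, had 104 and 88.1 with FGF15 and 63.8 and 81.2 with FGF19, against 10.9 and 21.9 with vehicle. Its vehicle signals lay close to the filter, a mean signal of about 14.0. The folds of 2.66 and 2.16 on the scale of (signal + 32) understate the ratio of such low signals (adjusted p = 0.00055 and 0.0021).

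Sel1l, the adaptor of HRD1, rose with FGF15 (1.24-fold, adjusted p = 0.024) and had a change of 0.13 ± 0.07 with FGF19. The FGF15 call was lost without either vehicle array or FGF15 replicate 2 (adjusted p = 0.11, 0.12 and 0.13). The other ERAD genes passed neither test at their brightest probe set. They were the derlins Derl1 and Derl2, the mannosidase-like Edem1 and Edem2, the lectin Os9 and Vcp, the ATPase that pulls substrates into the cytosol. Their log2 changes ran between 0.02 and 0.18 with FGF15, and between -0.13 and 0.17 with FGF19.

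Of the 7 genes of translocation and export, 5 rose with each hormone, by smaller amounts. Sec23b, a coat subunit of the COPII vesicles that leave the ER, had 1101 and 900 with FGF15 and 789 and 764 with FGF19, against 601 and 569 with vehicle. The groups did not overlap. Sec23b rose 1.67-fold with FGF15 (adjusted p = 0.00067) and 1.31-fold with FGF19 (adjusted p = 0.02), the FGF19 call being lost without any 1 of the vehicle or FGF19 arrays (adjusted p = 0.064 to 0.12). Sec61b, a subunit of the translocation channel, had 1773 and 1713 with FGF15 and 1521 and 1515 with FGF19, against 1196 and 1269 with vehicle, and rose 1.40-fold and 1.23-fold (adjusted p = 0.00084 and 0.013). Here too FGF15 was highest, and without vehicle replicate 1 or vehicle replicate 2 the FGF19 call was lost (adjusted p = 0.13 and 0.053).

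Ssr1 and Ssr3, subunits of the translocon-associated TRAP complex, rose 1.40-fold and 1.26-fold with FGF15, and 1.36-fold and 1.25-fold with FGF19. Spcs2, a subunit of the signal peptidase that cuts signal peptides, rose 1.29-fold with FGF15 and 1.21-fold with FGF19 (adjusted p = 0.012 and 0.04). The Ssr1 calls were lost without vehicle replicate 1 (adjusted p = 0.085 with FGF15 and 0.13 with FGF19), without FGF15 replicate 2 (0.073 with FGF15), and without FGF19 replicate 1 or FGF19 replicate 2 (0.057 and 0.079 with FGF19). The Ssr3 calls were lost without vehicle replicate 1 (0.12 with FGF15 and 0.13 with FGF19), vehicle replicate 2 (0.05021 and 0.052) or, with FGF15, FGF15 replicate 2 (0.095). Spcs2 was no longer called with FGF15 without either vehicle array or FGF15 replicate 2 (adjusted p = 0.057, 0.093 and 0.083), nor with FGF19 when any 1 of the vehicle or FGF19 arrays was left out (adjusted p = 0.097 to 0.19). Sec61a1, the pore of the channel, and Sec11c, a catalytic signal peptidase subunit, had log2 changes of 0.13 and 0.05 with FGF15 and of 0.13 and -0.07 with FGF19, and did not pass.

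Wfs1, wolframin of the ER membrane, had 202 and 173 with FGF15 and 132 and 145 with FGF19, against 106 and 123 with vehicle. It rose by 0.58 ± 0.12 with FGF15 (adjusted p = 0.0096), a call lost without vehicle replicate 1 or FGF15 replicate 1 (adjusted p = 0.08 and 0.06), and had a change of 0.22 ± 0.12 with FGF19. Nucb2, a calcium-binding protein of the secretory pathway, was the only member with a change under 0 with FGF15, and its values of -0.15 ± 0.14 and, with FGF19, -0.20 ± 0.14 did not pass.

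**Figure D2:**
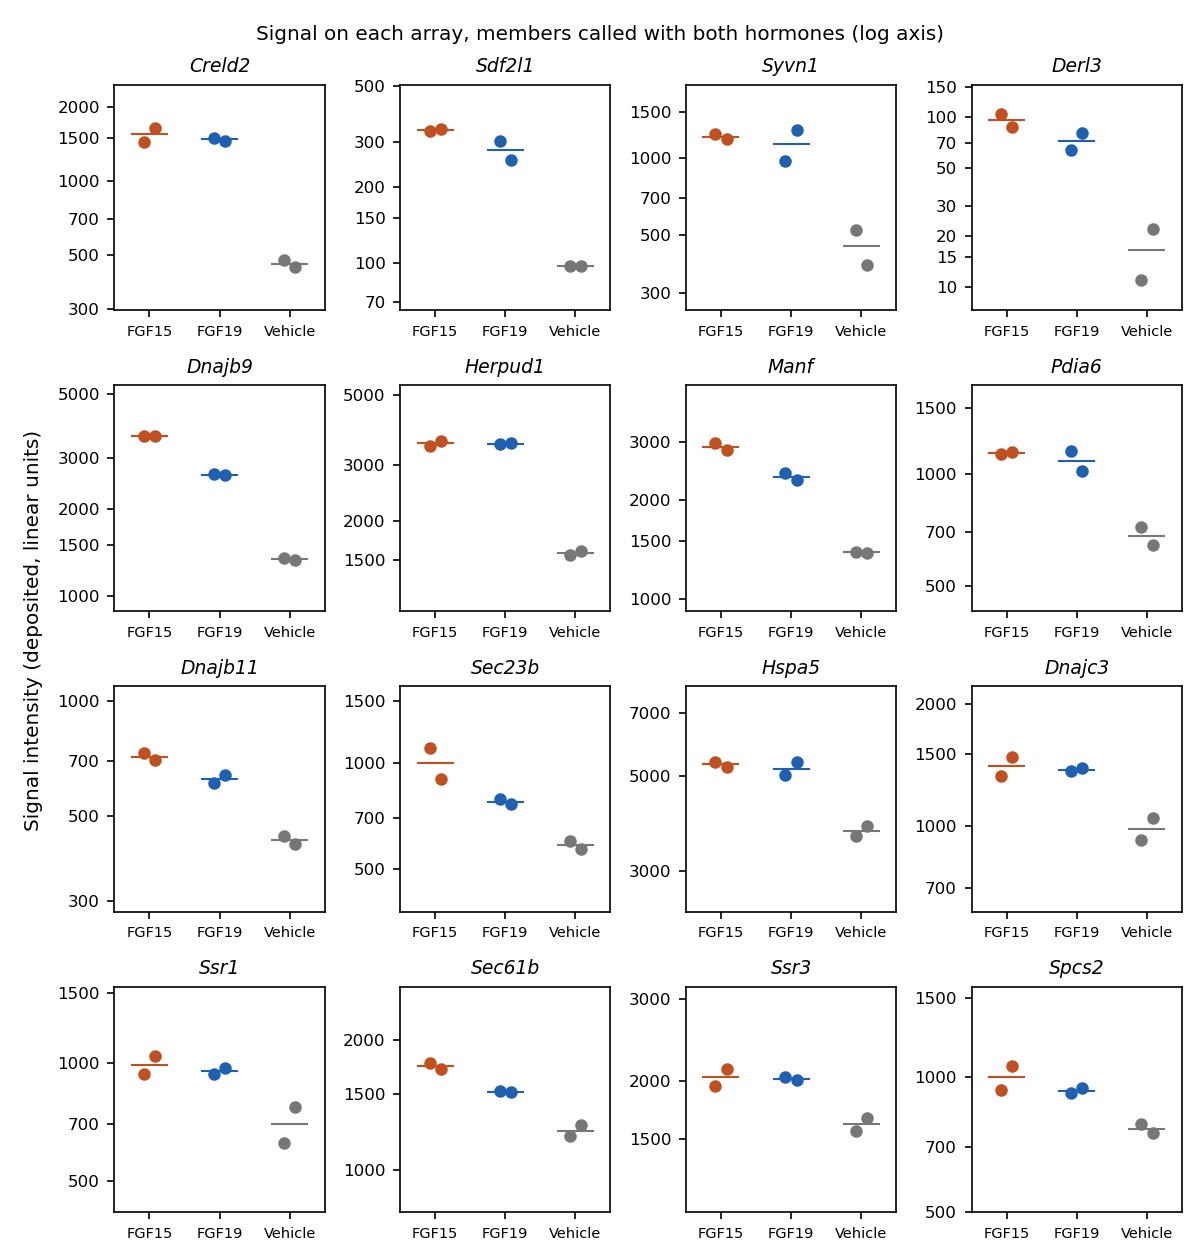
Deposited signal intensity on each of the 6 arrays (log axis) for the 16 members that rose with both hormones; points are arrays and lines are group means, with FGF15, FGF19 and vehicle from left to right. In every panel the 4 hormone arrays lie above both vehicle arrays. For Dnajb9, Manf, Sec61b, Dnajb11, Sdf2l1, Derl3 and Sec23b the FGF19 arrays lie between FGF15 and vehicle.

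The hormones were compared directly as FGF19 minus FGF15. The FGF15 was purified, the FGF19 was recombinant and the doses are not given. A difference of hormone thus cannot be told apart from one of preparation or dose. In this comparison 2 members fell and 0 rose by limma, while 2.41% of all genes rose and 1.89% fell by the same adjusted test. At an unadjusted p under 0.05, 11 members were down and 2 up, a count not made over all genes. Dnajb9 was 1.35-fold lower with FGF19 than with FGF15 (log2 -0.44 ± 0.06, adjusted p = 0.0024), with 2 of 2 FGF19 arrays under both FGF15 arrays. That call held whichever array was left out. Manf was 1.23-fold lower (-0.30 ± 0.06, adjusted p = 0.025). The Manf call held without FGF19 replicate 1 but was lost without vehicle replicate 1 or vehicle replicate 2 (adjusted p = 0.071 for each), FGF15 replicate 1 (0.17), FGF15 replicate 2 (0.069) or FGF19 replicate 2 (0.061).

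Atf6 came next to the threshold at -0.32 ± 0.08 (adjusted p = 0.05004). Sec23b had -0.35 (95% interval -0.55 to -0.14, adjusted p = 0.07), and Eif2ak3 had -0.29 (-0.51 to -0.07, adjusted p = 0.15). In the other direction, Sil1 had 0.33 (0.14 to 0.53, adjusted p = 0.064) and Xbp1 had 0.16 (0.02 to 0.31, adjusted p = 0.24). For several strongly raised members the difference was near 0, at -0.00 for Herpud1 (-0.14 to 0.13), -0.06 for Creld2 (-0.23 to 0.11) and -0.03 for Hspa5 (-0.19 to 0.12). Of the 39 members, 34 had a value under 0 and 5 a value above 0, with a median of -0.07. Over all genes, 45.0% had a value above 0, with a median of -0.02.

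**Figure D3:**
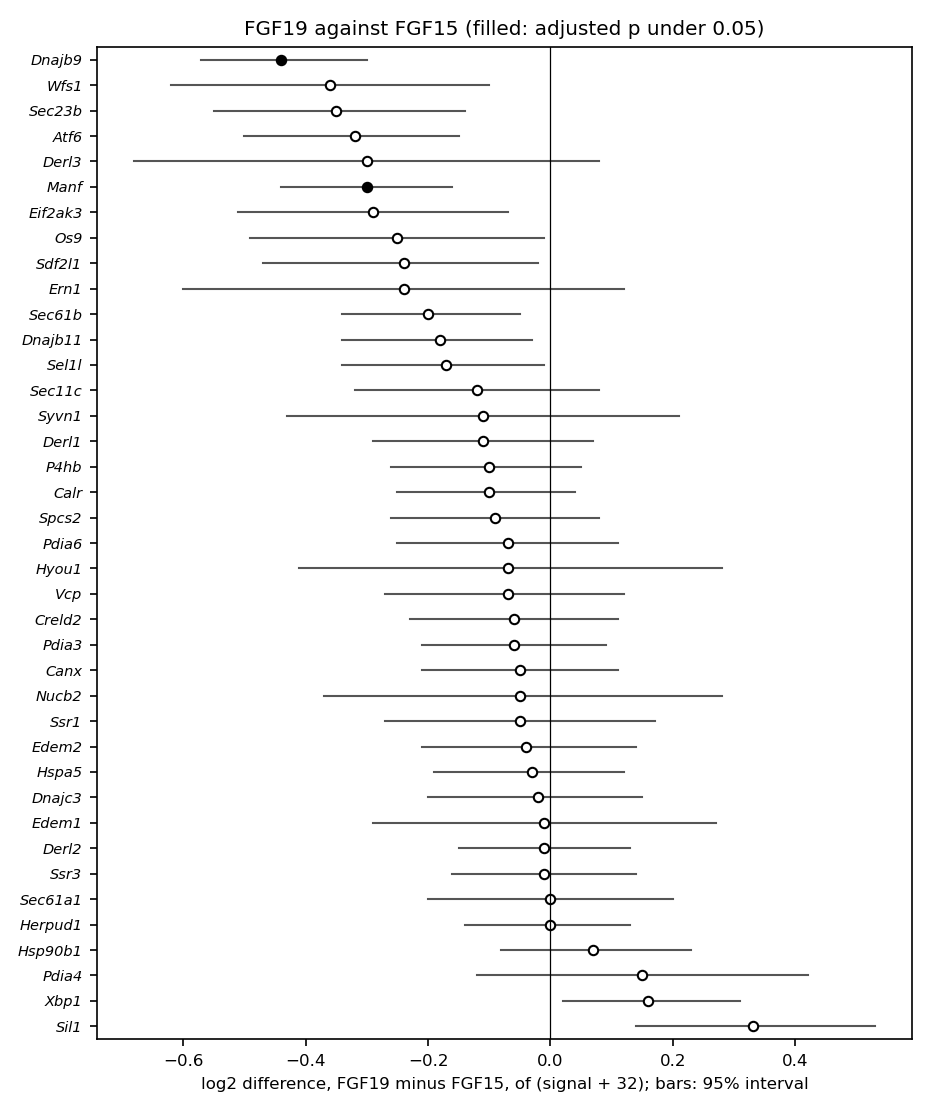
Log2 difference FGF19 minus FGF15 for each member, on the scale of log2(signal + 32), with 95% intervals from limma and 2 arrays per group. Filled points passed the test, and these were Dnajb9 at -0.44 and Manf at -0.30. Herpud1 and Creld2 lie near 0, and Sil1 is highest at 0.33.

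Several members had more than 1 probe set, and these did not always give the same answer. Of 77 member probe sets tested, 40 rose with FGF15 and 34 with FGF19. The background over all 16969 probe sets was 4.73% up and 5.81% down with FGF15, and 5.15% up and 6.34% down with FGF19. Counting a member by any of its probe sets, 28 rose with FGF15 and 25 with FGF19, against 21 and 19 by the brightest one. A gene with more probe sets has more chances to pass by any of them. The probe sets of 10 members with FGF15, and of 12 with FGF19, differed in call, out of 21 members with several tested. Neither the count by any probe set nor that of differing calls was made over all genes. The signed change at the brightest probe set lay below the median of the others in 14 of these 21 members with FGF15 and in 16 with FGF19. Over all genes with several probe sets, that was so for 45.9% and 45.4% of 3703 genes. Most members changed upwards and most genes did not, so these shares do not compare like with like.

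Hsp90b1 was the clearest case. Its second probe set had 2671 and 3317 with FGF15 and 2696 and 3064 with FGF19, against 2133 and 2064 with vehicle. All hormone arrays exceeded vehicle, with rises of 0.50 ± 0.10 and 0.45 ± 0.10 (adjusted p = 0.013 and 0.021), where the brightest probe set had 0.06 and 0.13. These calls were lost without vehicle replicate 1 (adjusted p = 0.079 with FGF15 and 0.1 with FGF19), vehicle replicate 2 (0.096 and 0.12), FGF15 replicate 2 (0.094 with FGF15) or FGF19 replicate 2 (0.1 with FGF19). Edem1 rose by 0.36 and 0.34 at a second probe set (adjusted p = 0.0097 and 0.013), where its brightest probe set had 0.02 and 0.01. Both Edem1 calls were lost without vehicle replicate 1 (0.088 with FGF15 and 0.1 with FGF19) or vehicle replicate 2 (0.055 and 0.066), the FGF15 call also without FGF15 replicate 1 (0.053) and the FGF19 call also without FGF19 replicate 1 (0.068).

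Derl2 rose by 0.68 with FGF15 and 0.43 with FGF19 at a second probe set (adjusted p = 0.004 and 0.037). Its FGF15 call held whichever array was left out, and its FGF19 call was lost without vehicle replicate 1, FGF19 replicate 1 or FGF19 replicate 2 (adjusted p = 0.22, 0.17 and 0.1). Derl1 rose by 0.48 and 0.30 at a further probe set (adjusted p = 0.0025 and 0.025), the FGF19 call being lost without any 1 of the vehicle or FGF19 arrays (0.073 to 0.14). Sel1l rose by 0.70 and 0.58 at a further probe set (adjusted p = 0.0007 and 0.0022), and both calls held without any 1 array. Of 6 Sec61a1 probe sets, 1 rose (by 0.66 and 0.68), and leaving out any 1 vehicle array, FGF15 replicate 1 or either FGF19 array ended a call (adjusted p = 0.054 to 0.16). Of 3 Calr probe sets, 1 rose with FGF15 (by 0.32), a call lost without any 1 vehicle or FGF15 array. Some members called at their brightest probe set had others that did not pass. A second Pdia6 probe set had 0.47 and 0.32 (adjusted p = 0.053 and 0.16). With FGF15, further probe sets had 0.28 and -0.01 for Ssr1 and, at low signal, -0.23 for Eif2ak3. With FGF19, they had 0.35 for Dnajc3, -0.25 for Ssr1 and, at low signal, 0.18 for Pdia4. Another Ssr1 probe set rose by 0.36 with FGF19, a call lost without any 1 array.

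Of the 4 Xbp1 probe sets, 3 had changes above 0 with both hormones. The other, at much lower signal, had -0.17 with FGF15, -0.44 with FGF19 and -0.27 in FGF19 minus FGF15, and did not pass (adjusted p = 0.65, 0.19 and 0.59). At the probe set with the largest rise, which also can bind related transcripts, the signal was 1705 and 1754 with FGF15 and 2211 and 2215 with FGF19, against 1323 and 1373 with vehicle. No groups overlapped, and the FGF19 arrays were the highest. The rises were 0.35 ± 0.06 with FGF15 and 0.70 ± 0.06 with FGF19 (adjusted p = 0.0068 and 0.00012), and the difference FGF19 minus FGF15 was 0.35 ± 0.06 (adjusted p = 0.015). It was the 1 member probe set that rose in that comparison, while 2 fell, against 1.97% up and 1.34% down over all probe sets. The call of the difference was lost without FGF15 replicate 1 or FGF15 replicate 2 (adjusted p = 0.11 and 0.07). The FGF15 call was lost without vehicle replicate 1 or FGF15 replicate 2 (0.087 and 0.058).

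**Figure D4:**
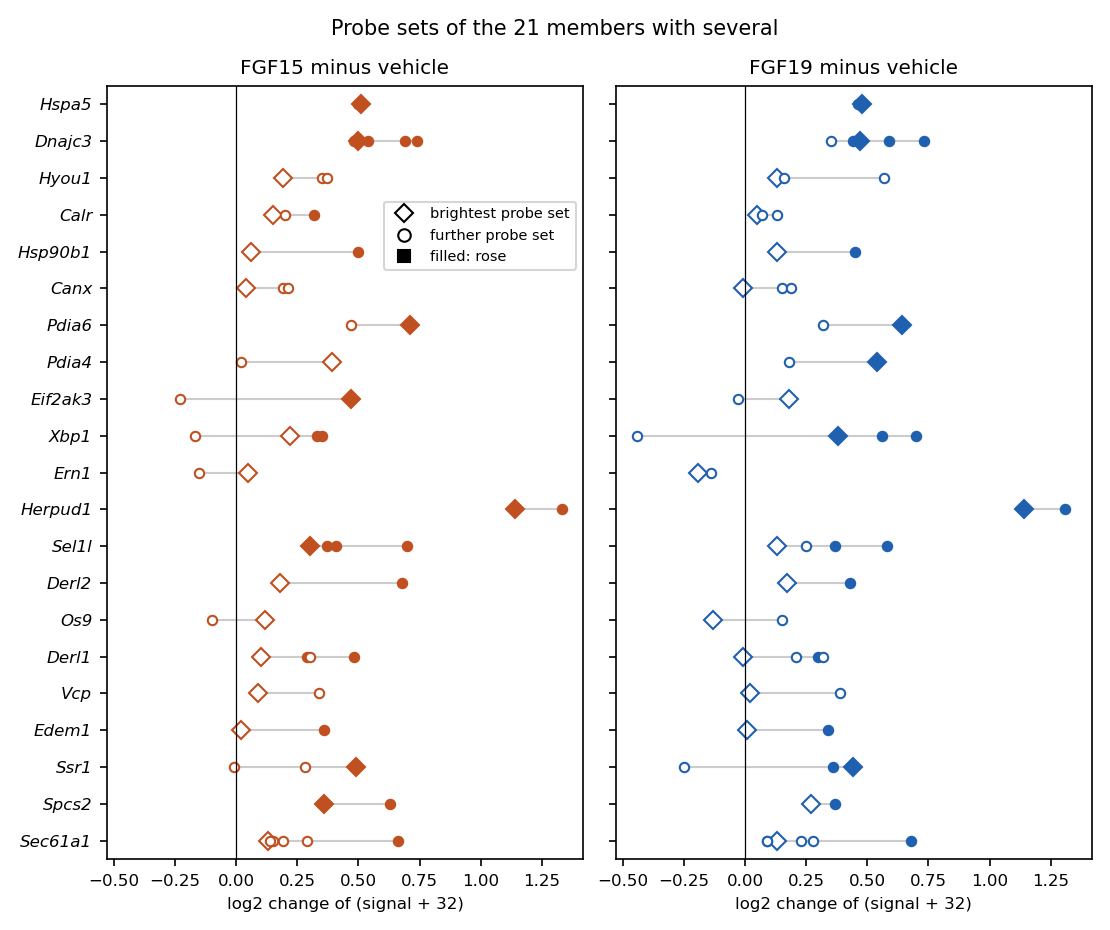
Log2 change of every tested probe set of the 21 members with several, FGF15 minus vehicle on the left and FGF19 minus vehicle on the right, on the scale of log2(signal + 32). Diamonds are the brightest probe set, circles the others, and filled symbols rose by the test over all probe sets. The brightest probe set of Hsp90b1, Edem1, Derl1 and Derl2 lies left of a filled circle in both panels.

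Promoter elements were set beside these changes. An ERSE lay in the window of 9 of 32 members (28.1%), against 37 of 27025 genes (0.137%), and an ERSE-II in 2 members (6.25%), against 0.0444% of genes. No member held both. The shorter UPRE core of XBP1 sites, TGACGTGG, was found in Vcp alone, against 0.714% of genes, and the ACGTG box that it contains was in 14 members (43.8%), against 21.8% of genes. These shares describe the list, many of whose genes are textbook targets of ATF6 and XBP1, and are no independent evidence.

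Of the 11 members with an ERSE or ERSE-II, 8 rose with FGF15 and 8 with FGF19, with median changes of 0.69 and 0.50. Among the 21 members with a window and neither element, 11 rose with FGF15 and 9 with FGF19, with medians of 0.30 and 0.22. Each class held genes at both ends. Creld2, Syvn1 and Derl3 with an ERSE changed by more than 1 on the log2 scale with both hormones, and the ERSE-II gene Herpud1 did so too. Hsp90b1 with its pair of ERSEs, Calr and Canx had brightest probe sets near 0. Sdf2l1, at 1.51 with FGF15 and 1.26 with FGF19, had neither element in its window, and Dnajb9, at 1.39 and 0.95, held only ACGTG boxes.

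**Figure D5:**
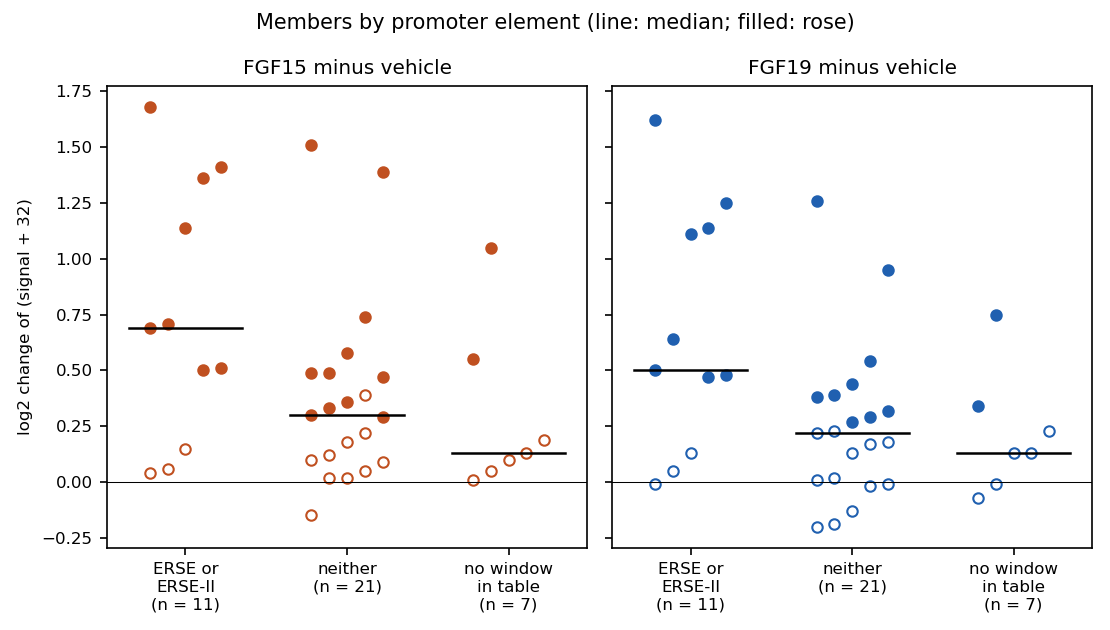
Log2 change of the 39 members against vehicle, on the scale of log2(signal + 32), by promoter element in the RefSeq window; points are genes, lines are class medians and filled points rose. The medians are 0.69 and 0.50 with an ERSE or ERSE-II and 0.30 and 0.22 with neither, and the classes overlap.

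Neighbouring pathways that are not among the 39 genes were counted in the same way. The shares over all genes were 5.91% up with FGF15 and 6.29% up with FGF19. With median centring they were 10.4% and 12.6%. In FGF19 minus FGF15, without centring, 2.41% of all genes rose and 1.89% fell. In transport between ER and Golgi, 15 of 28 tested genes rose with FGF15 and 9 with FGF19. Tmed3, a cargo receptor of these vesicles, had 521 and 516 with FGF15 and 342 and 327 with FGF19, against 217 and 210 with vehicle. It rose 2.24-fold and 1.49-fold (adjusted p = 9.9e-06 and 0.00086). Stx5a, a membrane fusion protein of the Golgi, rose 1.73-fold and 1.35-fold, and Arfgap3, a regulator of vesicle coats, rose 2.06-fold with FGF15 and had 0.21 ± 0.12 with FGF19. With FGF19 minus FGF15, 4 genes of the list fell, among them Tmed3 (by 0.59 on the log2 scale), Arfgap3 (by 0.83) and Stx5a (by 0.36, adjusted p = 0.016, lost without FGF15 replicate 2, FGF19 replicate 1 or FGF19 replicate 2 at 0.089, 0.066 and 0.085). The FGF15 count of the list was 8 without vehicle replicate 1, the FGF19 count was 5 without vehicle replicate 1 or FGF19 replicate 2, and 2 fell in FGF19 minus FGF15 without FGF19 replicate 1. With median centring, 21 rose with FGF15 and 14 with FGF19.

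Of 20 genes of N-glycosylation, 7 rose with FGF15 and 3 with FGF19, or 10 with each hormone with arrays centred on their medians. Alg2, which extends the sugar precursor, rose 1.82-fold with FGF15 (adjusted p = 0.00032) and had 0.30 ± 0.10 with FGF19 (adjusted p = 0.068). Ostc and Rpn1 of the oligosaccharyltransferase rose 1.51-fold and 1.46-fold with FGF15, and 1.28-fold and 1.44-fold with FGF19, where the Ostc call was lost without vehicle replicate 2 (adjusted p = 0.054). The FGF15 count was 4 without vehicle replicate 1, and the FGF19 count was 5 without FGF19 replicate 2. Of 16 further translocation genes, 5 rose with each hormone (8 with each under that centring), with Srp68, Spcs3 and Srp19 at log2 changes of 0.52, 0.52 and 0.56 with FGF15, and of 0.32, 0.56 and 0.67 with FGF19. The FGF19 call of Srp68 was lost without any 1 vehicle or FGF19 array (adjusted p = 0.07 to 0.09). The FGF15 count of this list was 3 without vehicle replicate 1 or FGF15 replicate 2, and the FGF19 count was 2 without either vehicle array or FGF19 replicate 1.

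Among 21 further chaperones and oxidases, 5 rose with FGF15, and 4 rose and 1 fell with FGF19, or 2 and 0 without vehicle replicate 1 and 7 and 0 with median centring. Serp1, which protects nascent chains, and the oxidase Ero1b rose by 0.52 and 0.53 with FGF15 and by 0.48 and 0.46 with FGF19. Txndc5, another isomerase, rose by 0.45 and 0.25, its FGF19 call being lost without either vehicle array or FGF19 replicate 2 (adjusted p = 0.16, 0.12 and 0.13). Of 16 further ERAD genes, 4 rose with FGF15 and 2 with FGF19. The FGF19 count was 1 without any 1 of the vehicle or FGF19 arrays, and 6 with median centring. Edem3, a mannosidase, Ubxn4, an anchor of VCP, and Selenos, a partner of the derlins, rose by 0.50, 0.51 and 0.38 with FGF15, while with FGF19 Selenos rose by 0.45 and Edem3 and Ubxn4 had 0.23 and 0.19.

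Genes of the PERK and ATF4 branch moved in both directions. Of 19 tested, 2 rose and 4 fell with FGF15, and 3 rose and 1 fell with FGF19. Over all genes, 5.91% rose and 6.67% fell with FGF15, and 6.29% rose and 7.27% fell with FGF19. In FGF19 minus FGF15, given for this branch further on, 2.41% of all genes rose and 1.89% fell. With median centring the counts of this branch were 4 and 4 with FGF15, and 5 and 0 with FGF19. The shares over all genes were then 10.4% and 3.68% with FGF15, and 12.6% and 3.41% with FGF19. Ddit3, the stress factor CHOP, had 123 and 111 with FGF15 and 118 and 108 with FGF19, against 61.0 and 46.2 with vehicle. All hormone arrays lay above vehicle, and Ddit3 rose 1.75-fold with FGF15 (adjusted p = 0.0037) and 1.70-fold with FGF19 (adjusted p = 0.0046), whichever array was left out. Chac1, which degrades glutathione, rose by 0.58 with FGF15 (adjusted p = 0.0097, lost without vehicle replicate 1 or FGF15 replicate 1 at 0.073 and 0.051) and had 0.38 with FGF19. Ppp1r15a (GADD34), which reverses the translational block of PERK, rose 1.37-fold with FGF19 (adjusted p = 0.028, lost without any 1 vehicle or FGF19 array at 0.082 to 0.16) and had 0.19 with FGF15.

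Among the genes of this branch that fell, Asns, asparagine synthetase, had 50.4 and 47.0 with FGF15 and 135 and 130 with FGF19, against 206 and 191 with vehicle. No groups overlapped and FGF15 was lowest. It fell 2.86-fold with FGF15 (adjusted p = 2.1e-05) and 1.40-fold with FGF19 (adjusted p = 0.017, lost without any 1 vehicle or FGF19 array at 0.061 to 0.12, and with median centring at 0.07). Cebpb, a transcription factor of the acute phase and of stress, fell by 0.41 with FGF15 and rose by 0.30 with FGF19, and its FGF19 call was lost without vehicle replicate 1 (adjusted p = 0.13). Eif4ebp1, an inhibitor of translation, fell by 0.52 with FGF15 (adjusted p = 0.0027). Ddit4, an inhibitor of mTORC1, fell by 0.80 with FGF15 (adjusted p = 0.0056, lost without vehicle replicate 1 at 0.055) and had 0.14 with FGF19. In FGF19 minus FGF15, 4 of the 19 rose, or 2 without FGF19 replicate 1. The 2 rises with FGF15 became 1 without vehicle replicate 1 or FGF15 replicate 1.

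Of 17 heat shock genes of the cytosol and, with Hspd1 and Hspe1, the mitochondria, 4 rose and 2 fell with each hormone. Neither mitochondrial gene was among these. With FGF15, 2 rose without vehicle replicate 2 or FGF15 replicate 1, and 1 fell without any 1 vehicle or FGF15 array. With FGF19, the rises numbered 1 without vehicle replicate 2 and 2 without either FGF19 replicate 1 or vehicle replicate 1. The cytosolic chaperones Hspb8 and Bag3 rose by 0.48 and 0.44 with FGF15 and by 0.43 and 0.32 with FGF19, Hspb1 fell by 0.62 with FGF15 and by 0.70 with FGF19, and the FGF19 call of Bag3 was lost without either vehicle array or FGF19 replicate 1 (adjusted p = 0.12, 0.073 and 0.12).

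Markers of some other cells moved as well. Kupffer cells are liver macrophages. Of their 12 tested markers, 11 fell with FGF15 and 10 with FGF19, and the summed signal of the list was 3827 to 3919 with FGF15 and 3741 to 3806 with FGF19, against 6873 to 6944 with vehicle. Marco fell by 0.71 with FGF15 but had 0.30 with FGF19 (adjusted p = 0.23), and its FGF19 minus FGF15 value was 1.01 (adjusted p = 0.0042). Mpeg1, C1qc and Clec4f fell by 1.21, 0.74 and 0.78 with FGF15, and by 0.70, 0.98 and 1.00 with FGF19. The part of this fall in the results for the ER genes was not tested. Professional secretory cells are rich in ER chaperones. Most of their markers had low signals here, and the part of such cells was not tested. Most pancreatic acinar signal came from Cela1, which had a log2 change of 0.11 with FGF15 and fell by 0.36 with FGF19 (adjusted p = 0.024). The summed signal of 10 pancreatic acinar markers was 538 to 573 with FGF15 and 402 to 426 with FGF19, against 532 to 542 with vehicle, 0 of 6 tested markers rose by the adjusted or the unadjusted test (1 with FGF15 without FGF15 replicate 2), and Ctrb1, Cpa1, Cpb1 and Pnliprp1 lay under the filter. Of 4 tested markers of neutrophils, 2 fell with FGF15 and 1 with FGF19, and the summed signal of the list was 264 to 305 with FGF15 and 422 to 446 with FGF19, against 531 to 539 with vehicle. S100a8 and S100a9, calcium-binding proteins of these cells, fell by 1.05 and 0.82 with FGF15. The other tested markers, Ngp and Elane, had -0.06 and 0.35 with FGF15 and -0.47 and -0.03 with FGF19, and did not pass. With FGF19, S100a8 fell by 0.48 (adjusted p = 0.0092, lost without vehicle replicate 1, vehicle replicate 2 or FGF19 replicate 1 at 0.067, 0.056 and 0.079, and with median centring at 0.053), and S100a9 had 0.12. The part of this fall too was not tested. Of 10 markers of stellate cells and fibroblasts, 3 fell with FGF15 (1 without vehicle replicate 1 or vehicle replicate 2) and 2 with FGF19 (1 without vehicle replicate 1 or FGF19 replicate 1). Those that fell were the collagens Col1a1, Col1a2 and Col3a1 with FGF15, and Col1a1 and Col3a1 with FGF19. The remaining markers of that list did not pass against vehicle. Among them, Lrat had 0.48 with FGF15 (adjusted p = 0.054) and -0.17 with FGF19, and -0.65 in FGF19 minus FGF15 (adjusted p = 0.032). For 7 markers of plasma cells and B cells the sum was 110 to 163 with FGF15 and 167 to 175 with FGF19, against 228 to 256 with vehicle. Of the 4 tested, 1 fell with each hormone, Jchain (by 0.68 with FGF15 and 0.60 with FGF19, adjusted p = 0.029 and 0.046). Of 10 markers of sinusoidal endothelial cells, 1 fell with FGF15 and 0 with FGF19, and 0 rose. Of 3 tested cholangiocyte markers and 6 of T cells and NK cells, 0 rose and 0 fell with either hormone. Of 2 tested erythroid markers, 1 rose with FGF19 and 0 with FGF15.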

How the data were processed

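Every array's deposited file holds a linear signal intensity for each probe set. The deposited signals of all 6 arrays had a trimmed mean of 200 (2% left out at each end), a scaling that no header or label describes. Which software summarised the probes is not stated in the sources used here. Arrays were grouped by their titles, 2 per group.

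Probe sets were named from GEO's platform annotation, updated through Entrez identifiers. Of 22690 probe sets, 64 were controls, 20380 had 1 gene, 691 had several and 1555 had none. The rule leaves out probe sets shared by several genes. Each gene was represented by its brightest probe set over all arrays, and 2708 genes whose mean log2(signal + 32) lay below the 25th percentile were left out. The log2 differences were fitted by limma 3.58.1 in R 4.3.3 (lmFit, eBayes with intensity trend), in 1 model of the 6 arrays with 3 residual and 6.83 prior degrees of freedom, with two-sided tests and Benjamini-Hochberg adjustment over all genes of a comparison. The adjusted p of probe sets is over 16969 probe sets. The number of arrays limits the precision, with a median standard error of 0.131. The steps were tested on simulated data. Promoters were scanned in Python 3.11.15, and figures were drawn with matplotlib 3.10.9.

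Every member called in a comparison was named, along with Xbp1, Atf6, Ern1, Eif2ak3, Hspa5, members whose probe sets disagreed, and up to 3 genes of each other list with the smallest FGF15 p. The members and lists were chosen with earlier results of these data known. Ddit3, Chac1, Ppp1r15a, Ddit4, Tat, S100a8 and S100a9 were named after their values were seen. So were the markers Marco, Ngp, Elane, Cela1, Jchain, Lrat and the collagens. Alternatives were an offset of 16 or 64, array centring, quantile or cyclic loess normalization, no filter or a stricter one, the mean of a gene's probe sets, all probe sets, no intensity trend, a fit of only the 2 groups compared, a block for replicate number, an adjusted p under 0.10, and leaving out each array in turn. C-terminal retrieval signals of the proteins are not analysed here.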

Additional observations from a re-analysis of the deposited data

Results flagged for a closer look

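The effects of the hormones against vehicle differed, by limma's test of FGF19 minus FGF15 with adjustment over all genes, for 2 members. Here too hormone, preparation and dose cannot be told apart. Dnajb9 had -0.44 and Manf had -0.30 on the log2 scale of (signal + 32), each lower on 2 of 2 FGF19 arrays than on both FGF15 arrays. The Xbp1 probe set with the largest FGF19 rise had 0.35, with 2 of 2 FGF19 arrays higher. Among genes of other lists named above, the difference passed for Arfgap3 (-0.83), Tmed3 (-0.59), Alg2 (-0.56), Stx5a (-0.36) and Ubxn4 (-0.32), and for Asns (1.03), Ddit4 (0.94), S100a9 (0.93), Tat (0.90), Cebpb (0.71), S100a8 (0.56), Mpeg1 (0.51) and Eif4ebp1 (0.37). It also passed for the markers Marco (1.01), Lrat (-0.65) and Cela1 (-0.47), whose own calls were not followed with an array left out. The calls of Dnajb9, Arfgap3, Tmed3, Asns, S100a9, Tat, Cebpb and Mpeg1 held whichever array was left out. The Manf call was lost without any 1 array but FGF19 replicate 1 (adjusted p = 0.061 to 0.17), that of Stx5a without FGF15 replicate 2, FGF19 replicate 1 or FGF19 replicate 2 (0.066 to 0.089), and that of the Xbp1 probe set without FGF15 replicate 1 or FGF15 replicate 2 (0.11 and 0.07). That of Ddit4 was lost without FGF19 replicate 1 (0.064), and that of S100a8 without FGF15 replicate 1 or FGF19 replicate 2 (0.051 and 0.072). The calls of Alg2 were lost without FGF15 replicate 2 or FGF19 replicate 2 (adjusted p = 0.054 and 0.063), those of Ubxn4 without any 1 array but FGF19 replicate 2 (0.084 to 0.2), and those of Eif4ebp1 likewise (0.062 to 0.22).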

How the results depend on the processing

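With 2 arrays a group, the number of calls moved with the arrays and the variance model, and no setting made a member fall against vehicle. The count of members up with FGF19 was 19, fell to 10 with no intensity trend in the variance, and ran between 11 and 19 when 1 array was left out. With FGF15 it was 21, with 16 to 25 under the alternatives that kept all arrays and 14 to 22 with 1 array left out. Of the 21 FGF15 calls 15 held under all 13 alternatives, and of the 19 FGF19 calls 10 did. In FGF19 minus FGF15, the count of members that rose went to 1 with quantile or cyclic loess normalization, with the mean of a gene's probe sets and at a threshold of 0.10. The count that fell was 1 with median centring or only the arrays compared, 0 with no intensity trend, 4 at a threshold of 0.10, and 1 to 2 with 1 array left out. Causes were not tested. Some values near 0 changed sign. Edem1 with FGF15 (0.02) had -0.01 with quantile and -0.02 with cyclic loess normalization, and -0.20 to 0.25 with 1 array left out. With FGF19 (0.01) it had -0.04 and -0.03 under those normalizations, and -0.06 to 0.08 with 1 array left out. Derl1 with FGF19 (-0.01) had 0.14 with median centring, 0.20 with the mean of its probe sets, and -0.09 to 0.08 with 1 array left out. Leaving out 1 array gave Ern1 with FGF19 -0.43 to 0.05 and Ddit4 with FGF19 -0.04 to 0.31, and in FGF19 minus FGF15 gave Hspa5 -0.08 to 0.02 and Creld2 -0.16 to 0.03, where Hspa5 also had 0.01 with quantile normalization. Over all genes, no intensity trend gave 242 up and 393 down with FGF15 and 297 and 434 with FGF19, against 572 and 646, and 609 and 704, and it gave 110 and 53 in FGF19 minus FGF15, against 233 and 183. Without vehicle replicate 1 they were 271 and 267 with FGF15, and 316 and 283 with FGF19. Arrays with the same replicate number did not pair: the correlation of their deviations from the group means was 0.0808 for FGF15 and vehicle, -0.0217 for FGF19 and vehicle and 0.0502 for FGF19 and FGF15. With the replicate number as a block (a paired fit), 21 members rose with FGF15, 20 with FGF19 and 3 fell in FGF19 minus FGF15.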
